A study of Mus musculus with 40 samples.

Results

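The cerebellum was compared with 4 forebrain regions of the mouse, the amygdala, hippocampus, prefrontal cortex and striatum. The comparison used the 8 arrays whose titles name the cerebellum, out of 40 arrays in the series, and set them against 32 forebrain arrays, 8 per region, with each forebrain region weighted equally. A gene was called cerebellar only where it differed from every one of the 4 regions in the same direction. The mice carried either alanine (genotype Ala92D2HY in the labels) or threonine (Thr92D2HY) at position 92 of the type 2 deiodinase, the Dio2 enzyme that converts thyroxine to T3, and each combination of region and genotype had 4 arrays. All were on a background labelled C56BL/6, were 8 to 10 weeks old, were housed at 22 °C and ate chow. Every group therefore carried one of the 2 Dio2 alleles, and no array came from a mouse described as carrying neither. Which mouse gave which array is not in the labels. The p-values therefore reflect variation among arrays alone, and part of it may be technical.

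The cerebellum develops from the hindbrain, whereas the forebrain regions derive from the telencephalon. Its cortex has few neuron types: very numerous small glutamatergic granule cells, whose parallel fibres contact the dendrites of large GABAergic Purkinje cells, together with inhibitory interneurons of the molecular and granular layers and the specialised astrocytes called Bergmann glia. Forebrain tissue holds pyramidal neurons or, in the striatum, medium spiny neurons, whose dendritic spines carry a signalling machinery built on CaMKII and NMDA receptors.

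Each array gave a log2 signal per gene. Of 19505 genes on the array, 14978 passed a filter on dim genes and were tested. The first principal component held 45.2% of the variance and separated the tissues, with the 8 cerebellum arrays between 93.3 and 117.5 and the 32 forebrain arrays between -34.6 and -15.5. Cerebellum Ala replicate 12 had the lowest of these cerebellar scores. In that array Nrgn, a forebrain neuron gene, stood at 10.03 against 7.02 to 8.24 in the other cerebellum arrays, and Neurod6, a gene of cortical and hippocampal pyramidal neurons, at 9.11 against 6.44 to 7.18. In the opposite sense, amygdala Ala replicate 1 had the granule cell gene Gabra6 at 10.12, against 3.51 to 6.29 in the other amygdala arrays, and Cbln3 at 7.78, against 3.24 to 5.24. Amygdala Ala replicate 2 and striatum Ala replicate 36 had the highest mean of centred choroid plexus genes in their regions, 1.12 and 3.42. Striatum Ala replicate 33 (2.26), hippocampus Ala replicate 17 (2.14) and hippocampus Thr replicate 24 (1.90) were above that amygdala array but were kept. With cerebellum Ala replicate 12, amygdala Ala replicates 1 and 2 and striatum Ala replicate 36 left out, the number of cerebellar genes was 1654 in place of 1618. Of these, 1577 were called both ways, and this alternative does not cover every array high in choroid plexus genes. Without cerebellum Ala replicate 12 alone the number of cerebellar genes was 1670. The array medians of the 5222 rows named as negative controls lay between 6.2 and 6.35 in cerebellum and between 5.73 and 6.02 in forebrain. A level near or below that range was treated as close to background. That range is only a working limit, because the row means of these controls ran from 2.08 to 19.9. It also held the array medians of all rows, 6.121 to 6.32. The 23 rows named as background probes by GC content had lower array medians, 4.74 to 5.22 in cerebellum and 4.8 to 5.67 in forebrain. The part of the negative control offset in the results was not tested beyond an alternative that raised all levels below 6.35 to that floor, which is given where it changes a count. The deposited log2 values reached 19.93, and 485 rows exceeded 16, the log2 ceiling of a 16-bit scanner, on at least 1 array. The scale is thus wider than that of scanner intensities, and differences are given in log2 units and not converted to folds.

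The cerebellum differed from every forebrain region in 1618 of the 14978 tested genes (10.8%), 822 of them higher (5.49%) and 796 lower (5.31%). A call required a Benjamini-Hochberg adjusted p under 0.05 and an absolute log2 difference of at least 1 against each of the 4 regions in 1 limma fit. A further 27 genes passed both thresholds against all 4 regions but with mixed signs. The single comparisons called more genes: 3167 against the amygdala (21.1%), 2893 against the hippocampus (19.3%), 2883 against the prefrontal cortex (19.2%) and 3199 against the striatum (21.4%), all of which share the same cerebellum arrays. The shares higher and lower were 10.2% and 10.9% against amygdala, 8.95% and 10.4% against hippocampus, 8.81% and 10.4% against prefrontal cortex, and 10.4% and 10.9% against striatum. Against the mean of the 4 regions 2808 genes were called (18.7%), 1302 of them higher (8.69%) and 1506 lower (10.1%), and 480 of the higher and 710 of the lower genes in that comparison were not called against every region. The values of all 8 cerebellum arrays lay above all 32 forebrain arrays for 1043 genes (6.96%) and below all of them for 850 (5.67%), which included 740 of the 822 higher and 673 of the 796 lower cerebellar genes. For 272 higher and 298 lower genes, the smallest of the 4 differences was at least 2 log2 units, and for 54 and 57 genes it was at least 4. The median over all tested genes of the difference from the forebrain mean was -0.00465. In 203 of the higher genes (24.7%) and 209 of the lower genes (26.3%) the tissue with less signal lay below 5.73, so the size of those differences depends on the background of the array.

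The genes furthest above every forebrain region included several of granule cells and Purkinje cells. Gabra6, the GABA-A receptor subunit of granule cells, came first by its smallest difference, followed by Cbln3, a secreted cerebellin of granule cells, and then by Pcp2, a regulator of G protein signalling in Purkinje cells. The promoters of these 3 genes are shown because their genes led the comparison. The sequences are RefSeq's on GRCm38.p6, 250 bases before to 50 bases after the transcription start, printed along the gene's strand. Capitals mark the short nuclear factor I motif GCCAA (read on either strand) in Gabra6 and Cbln3 and an E-box (CAGATG on either strand) in Pcp2, for which the last of 4 listed starts is shown. Of those starts the last 2 hold the E-box in their window and the other 2 do not. The locations are chr11:42321023-42321322 for Gabra6, chr14:55884207-55884506 for Cbln3 and chr8:3625498-3625797 for Pcp2, all on the minus strand.
Gabra6: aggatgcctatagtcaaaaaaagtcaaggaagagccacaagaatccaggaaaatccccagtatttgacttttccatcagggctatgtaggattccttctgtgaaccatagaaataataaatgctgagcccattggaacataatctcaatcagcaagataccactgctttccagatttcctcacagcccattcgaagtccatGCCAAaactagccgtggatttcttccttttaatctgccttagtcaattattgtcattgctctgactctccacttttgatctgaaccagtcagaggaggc
Cbln3: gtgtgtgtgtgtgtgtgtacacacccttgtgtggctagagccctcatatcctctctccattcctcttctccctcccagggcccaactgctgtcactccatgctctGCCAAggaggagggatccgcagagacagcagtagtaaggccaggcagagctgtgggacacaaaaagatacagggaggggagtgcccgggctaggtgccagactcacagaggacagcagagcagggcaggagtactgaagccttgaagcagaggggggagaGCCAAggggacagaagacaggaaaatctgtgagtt
Pcp2: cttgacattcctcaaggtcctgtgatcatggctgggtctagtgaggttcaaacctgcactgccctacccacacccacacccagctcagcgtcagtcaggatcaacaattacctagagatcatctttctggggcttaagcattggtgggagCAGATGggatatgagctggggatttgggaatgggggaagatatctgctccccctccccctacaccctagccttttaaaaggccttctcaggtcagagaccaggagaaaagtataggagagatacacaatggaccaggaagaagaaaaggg

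The table held 15180 promoters for 12084 of the tested genes. The motif GCCAA occurred in 48.8% of them, in 51.1% of the 893 promoters of higher genes and in 44.9% of the 915 promoters of lower genes. The E-box occurred in 13.0% of all promoters, and in 12.8% of those of both the higher and the lower genes. The full nuclear factor I site, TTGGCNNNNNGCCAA, which contains the short motif on both strands, was found in 5 promoters in all and in none of a cerebellar gene. These are counts of letters in a window, not of bound sites.

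Gabra6 ranged from 17.51 to 18.05 in the 8 cerebellum arrays (median 17.93) and from 2.87 to 10.12 in the 32 forebrain arrays (median 3.51). The groups did not overlap, and the highest forebrain value was that of amygdala Ala replicate 1. The difference from the forebrain mean was 13.99 ± 0.36 (SE, n = 8 cerebellum and 32 forebrain arrays, limma adjusted p = 2.23e-30). Cbln3 lay between 16.19 and 16.88 in cerebellum and between 3.24 and 7.78 in forebrain, a difference of 12.64 ± 0.27. Pcp2 lay between 17.34 and 18.29 and between 5.90 and 9.04, a difference of 11.26 ± 0.19. Every cerebellum array was thus above every forebrain array for each of these 3 genes, beside 6.96% of all tested genes. The leading genes were chosen by the size of their difference, so their separation is a description.

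Further members of the leading group were separated as fully. Car8, a carbonic anhydrase-related protein that binds the IP3 receptor in Purkinje cells, was at 17.82 to 18.24 in cerebellum and 5.34 to 11.08 in forebrain, a difference of 10.69 ± 0.25. Cbln1, a cerebellin that granule cells secrete at their synapses on Purkinje cells, was at 16.95 to 17.64 and 4.16 to 10.15, a difference of 10.32 ± 0.39. The protocadherin-like Fat2 of granule cells differed by 9.31 ± 0.14 and Ppp1r17, a phosphatase inhibitor of Purkinje cells, by 9.27 ± 0.19. The exchange factor gene Arhgef33, the homeobox gene En2, the parvalbumin gene Pvalb, the D-amino acid oxidase gene Dao and the zinc finger gene Zic2 completed the first 12, with differences of 8.65 ± 0.15, 7.25 ± 0.16, 7.05 ± 0.21, 6.67 ± 0.15 and 7.01 ± 0.22. Except for Pcp2, Car8, Cbln1 and Pvalb, the forebrain means of these 12 genes lay at or below 5.73, so these sizes do not rank the genes.

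**Figure D1:**
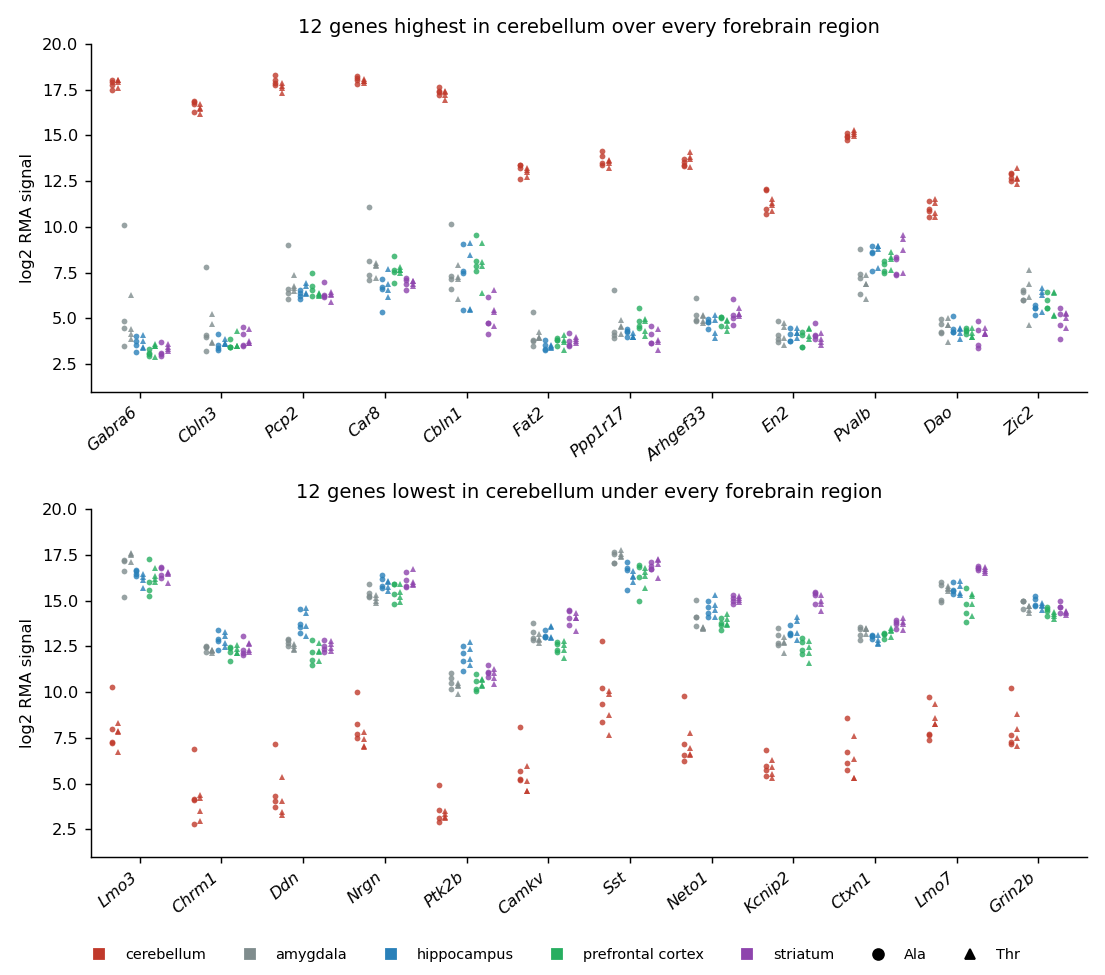
Log2 RMA signal of the 12 genes furthest above and the 12 furthest below every forebrain region, 1 point per array (8 arrays per region, circles Ala, triangles Thr, colours regions). In each of the 24 genes no cerebellum array overlapped a forebrain array, but they were chosen by the size of their difference, which favours separation. Cerebellum Ala replicate 12 was the highest cerebellum array for genes such as Nrgn (10.03) and Camkv (8.09).

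The genes furthest below every forebrain region included a transcriptional regulator, receptors and proteins of dendrites. Lmo3, a LIM-only transcriptional regulator, ranged from 6.70 to 10.29 in cerebellum (median 7.85) and from 15.21 to 17.59 in forebrain (median 16.48), a difference of -8.55 ± 0.24 (limma adjusted p = 3.56e-29). Chrm1, the M1 muscarinic receptor, was at 2.82 to 6.87 against 11.68 to 13.41, a difference of -8.33 ± 0.23. Ddn, which encodes the dendritic protein dendrin, was at 3.27 to 7.14 against 11.51 to 14.59, a difference of -8.34 ± 0.25. None of these 3 genes, chosen in the same way, had a cerebellum array within the forebrain range. All cerebellum arrays lay below all forebrain arrays in 5.67% of all tested genes. Chrm1 and Ddn reached below 5.73 in cerebellum, so the sizes of such differences do not rank the genes.

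Nrgn, encoding the calmodulin-binding spine protein neurogranin, ranged from 7.02 to 10.03 in cerebellum and from 14.82 to 16.75 in forebrain, a difference of -7.83 ± 0.18. The tyrosine kinase gene Ptk2b and the CaM kinase-like vesicle protein gene Camkv differed by -7.53 ± 0.17 and -7.62 ± 0.20. The kainate receptor auxiliary subunit gene Neto1 differed by -7.13 ± 0.22, and Kcnip2, a subunit of A-type potassium channels, by -7.55 ± 0.16. Sst, the somatostatin precursor of forebrain interneurons, had the widest cerebellar range of the 12, from 7.64 to 12.82, still below its lowest forebrain value of 14.96. The difference was -7.13 ± 0.29. Ctxn1, Lmo7 and the NMDA receptor subunit gene Grin2b had differences of -6.83 ± 0.20, -7.30 ± 0.19 and -6.64 ± 0.19.

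Markers of the main cerebellar cell types were compared first. Their lists were chosen with earlier results of these data known, so the counts describe the tissue and do not check its label. Of 19 tested granule cell markers 16 were higher and 0 lower, with a median difference from the forebrain mean of 4.92, where all tested genes had 5.49% higher and a median near 0. With the floor, 15 were higher. Zic1, a transcription factor of granule cells, was at 17.71 to 18.11 in cerebellum against 7.68 to 12.74 in forebrain. Grm4 and Cadps2, an inhibitory glutamate receptor and a vesicle priming factor of parallel fibres, differed by 5.89 ± 0.21 and 4.43 ± 0.22. The other members were not called. Gabrd, the extrasynaptic partner of Gabra6, stood at a mean of 9.02 in cerebellum and 8.36 in striatum, a difference of 0.66 from that region. Kcnd2 differed from the forebrain mean by 1.91 ± 0.14 without passing in every region. Slc17a7, the vesicular glutamate transporter of granule cells and cortical neurons alike, was at 14.80 to 15.77 in cerebellum, below the means of 17.03 to 17.28 in amygdala, hippocampus and prefrontal cortex and above the striatal mean of 11.86.

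Of 20 tested Purkinje cell markers 16 were higher (80%, beside 5.49% of all tested genes) and 0 lower. The median was 3.91, and 13 were higher with the floor. Slc1a6, the glutamate transporter of Purkinje cells, differed by 7.12 ± 0.15, the scaffold gene Homer3 by 5.57 ± 0.17, the phospholipase gene Plcb4 by 5.48 ± 0.20 and the calcium buffer gene Calb1 by 4.19 ± 0.20. Calb1 lay between 15.46 and 16.19 in cerebellum and reached 13.54 in forebrain, so that the ranges did not overlap. Prkg1, Plcb3, Pcp4 and Foxp2 were not called, with differences of 1.36 ± 0.16, 1.07 ± 0.11, 0.95 ± 0.15 and -1.04 ± 0.26. In these bulk samples, fewer cells of a type and less RNA per cell cannot be told apart.

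Markers of interneurons and of Bergmann glia were examined next. Of 12 tested markers of cerebellar interneurons and unipolar brush cells 5 were higher (41.7%, beside 5.49% of all tested genes) and 0 lower. Tfap2b (6.57 ± 0.14) and Tfap2a (3.40 ± 0.13), transcription factors of the GABAergic lineage, were higher. So were Slc6a5, the glycine transporter of Golgi cells (3.69 ± 0.11), Kit (3.07 ± 0.15) and Lgi2 (1.27 ± 0.21). With levels below 6.35 raised to that floor, 3 genes of the list were called. Gad1 and Slc32a1, which all GABAergic neurons use, differed by -0.11 ± 0.17 and 0.33 ± 0.13. Of 10 Bergmann glia markers 7 were higher (70%, beside 5.49% of all tested genes), with a median of 2.02. Gdf10, a secreted factor of Bergmann glia, was at 12.25 to 13.00 in cerebellum and 5.63 to 7.70 in forebrain, a difference of 5.94 ± 0.14. The AMPA receptor subunit gene Gria4, the Hedgehog receptor gene Ptch1 and the septin gene Septin4 followed, with 3.64 ± 0.15, 2.90 ± 0.14 and 2.75 ± 0.21.

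Markers of neighbouring tissue were less regular. Among 7 tested markers of brainstem and cerebellar nuclei only the glycine receptor gene Glra1 was called (2.41 ± 0.23, cerebellum 7.07 to 9.14, forebrain 3.89 to 8.29). Without cerebellum Ala replicate 9 or Thr replicate 16, 3 of these markers were called, and without amygdala Ala replicate 4, amygdala Thr replicate 8 or cerebellum Thr replicate 15, 2 were. None of the 4 tested Hox genes and none of the 12 meningeal genes was called. Among 13 tested choroid plexus genes the homeobox gene Otx2, which granule cells also express, was the only one called, at 3.45 ± 0.33. Ttr, the transthyretin gene of choroid plexus, was at 17.60, 7.58, 17.45 and 6.07 in the 4 Ala cerebellum arrays and at 17.48, 14.47, 17.49 and 17.57 in the 4 Thr arrays. Replicates 10 and 12 were therefore low, replicate 14 lay in between and the other 5 were high. Forebrain arrays spread as widely, from 5.70 to 19.11. The mean of the centred choroid plexus genes ran from -1.01 to 1.86 across the cerebellum arrays and from -1.62 to 3.42 across forebrain arrays. With that mean as a covariate 1599 cerebellar genes were called, and without replicates 10, 12 and 14 1699 were.

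**Figure D2:**
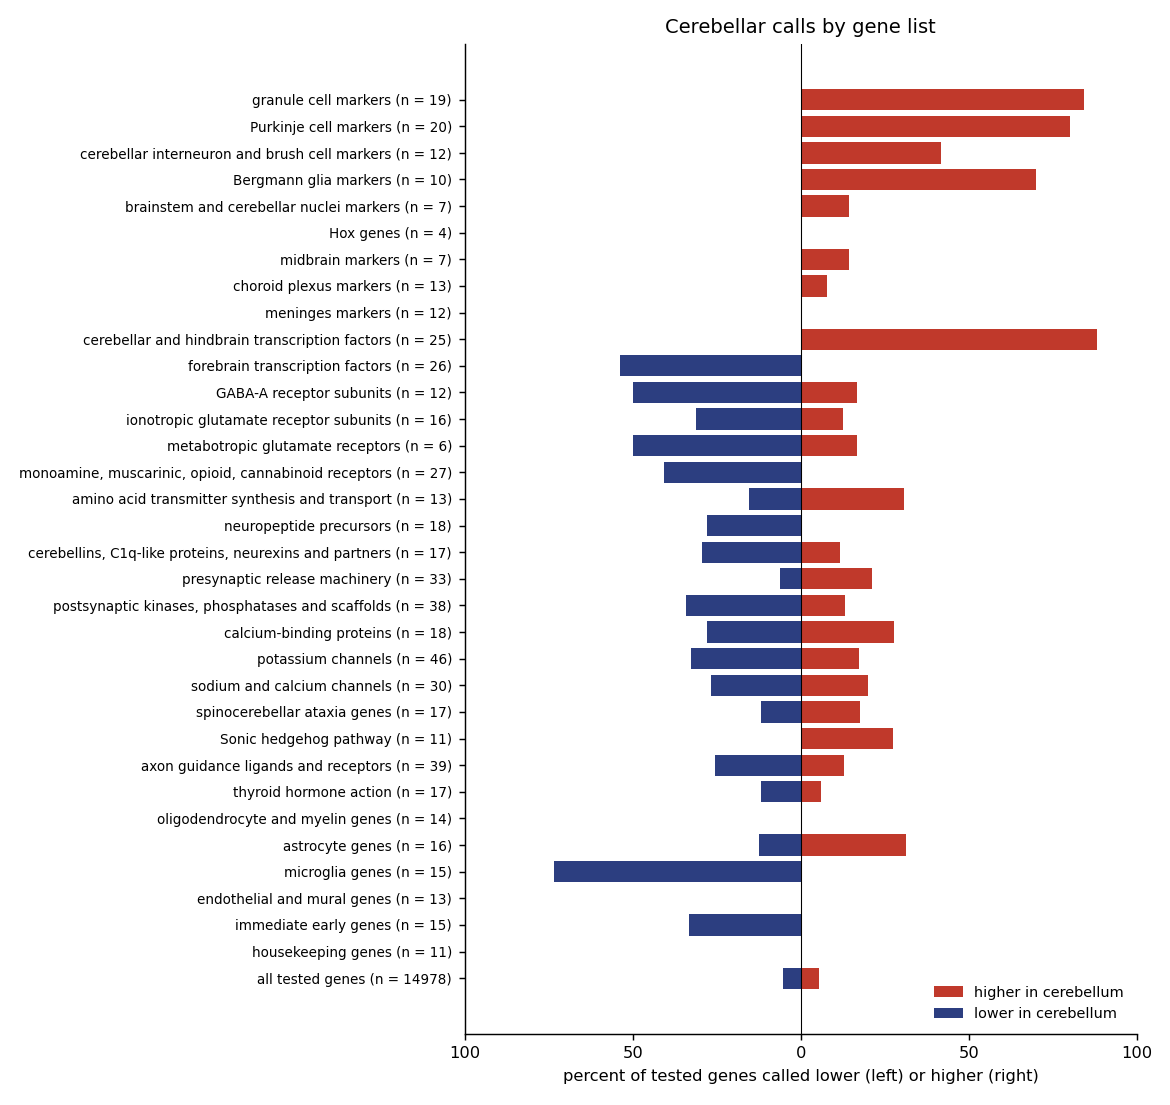
Percent of the tested genes of each list that were called lower (left, blue) or higher (right, red) in the cerebellum than in every forebrain region, with the number tested. The longest bars to the right are those of cerebellar and hindbrain transcription factors (88%), granule cell markers (84.2%) and Purkinje cell markers (80%), and the longest to the left that of microglia genes (73.3%), beside 5.49% and 5.31% for all tested genes. Some genes are in several of these lists, so the bars are not separate results. Members that passed the filter only through the tissue where they are high had to differ.

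Transcription factors were called in both directions, but several of the higher ones were already counted in the cell type lists above. Zic1, Zic2, Pax6, Barhl1 and Etv1 are also granule cell markers, and Lhx1, Lhx5, Rora and Ebf2 Purkinje cell markers. Tfap2a and Tfap2b are also interneuron markers, so the lists are not separate results. Of 25 tested cerebellar and hindbrain factors 22 were higher (88%, beside 5.49% of all tested genes) and 0 lower, with a median of 3.00. The list had 30 factors on the array, and Atoh1, Gbx2, Irx1, Irx5 and Skor2 were too dim to be tested. A factor that passed the filter only through the cerebellum arrays had to differ, so these shares are descriptions. All cerebellum arrays lay above all forebrain arrays for 21 of these factors, beside 6.96% of all tested genes. Zic1 differed by 7.98 ± 0.31, Barhl2, a homeobox factor of granule cells, by 7.42 ± 0.20, En2 by 7.25 ± 0.16 and Zic2 by 7.01 ± 0.22. Pax6, which also acts in cortical development, was at 11.91 to 12.49 in cerebellum and 6.93 to 10.25 in forebrain, a difference of 4.12 ± 0.16. Its nearest region was the prefrontal cortex, with a mean of 9.19. Eomes, En1 and Lmx1a were not called, and En1 was dim throughout, at 4.41 to 5.30 in cerebellum and 3.41 to 4.50 in forebrain. With the 50th percentile exceeded on at least 8 arrays as a stricter filter, 14 genes of the list were called. With levels below 6.35 raised to that floor, 10 genes of the list were called.

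Of 26 tested forebrain factors 14 were lower (53.8%, beside 5.31% of all tested genes) and 0 higher, with a median of -2.45. Bcl11b, a factor of corticospinal and striatal neurons, was at 2.99 to 4.57 in cerebellum and 9.07 to 13.36 in forebrain, a difference of -7.08 ± 0.15. Tbr1, a cortical projection neuron factor, differed by -6.08 ± 0.49 and the LIM homeobox gene Lhx2 by -5.71 ± 0.25. The Tbr1 ranges overlapped, with a highest cerebellum value of 9.23 and a lowest forebrain value of 7.06. Dlx1, Dlx2, Dlx5 and Dlx6, factors of forebrain GABAergic neurons, were all lower, with differences of -2.38 ± 0.22, -3.44 ± 0.23, -3.57 ± 0.27 and -3.14 ± 0.19. Neurod2 had the most positive difference of the list, at 1.75 ± 0.17, and was not called. With the floor, 8 genes of the list were called.

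GABA-A receptors are pentamers whose subunits differ between neuron types, and the subunits split by direction. Of 12 tested, Gabra6 and Gabrb2 were higher, 6 were lower and 4 were not called, with a median of -1.48. The shares were 16.7% higher and 50% lower, beside 5.49% and 5.31% of all tested genes. Gabrb2 lay between 15.49 and 16.02 in cerebellum and between 13.62 and 14.67 in forebrain, a difference of 1.62 ± 0.09. Gabra5, the subunit of hippocampal extrasynaptic receptors, ranged from 5.10 to 10.47 in cerebellum and from 10.74 to 17.01 in forebrain. Its difference was -9.93 against hippocampus but -4.94 against striatum. Gabrg3, Gabra4, Gabra3, Gabra2 and Gabrb1 were lower, with differences of -4.88 ± 0.18, -3.61 ± 0.11, -3.47 ± 0.21, -2.58 ± 0.24 and -1.88 ± 0.14. Gabrd missed the call through striatum, Gabrg1 (-1.08 ± 0.19) through hippocampus and striatum, and Gabrq (0.01 ± 0.20) and Gabre (-0.37 ± 0.17) were not called either.

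**Figure D3:**
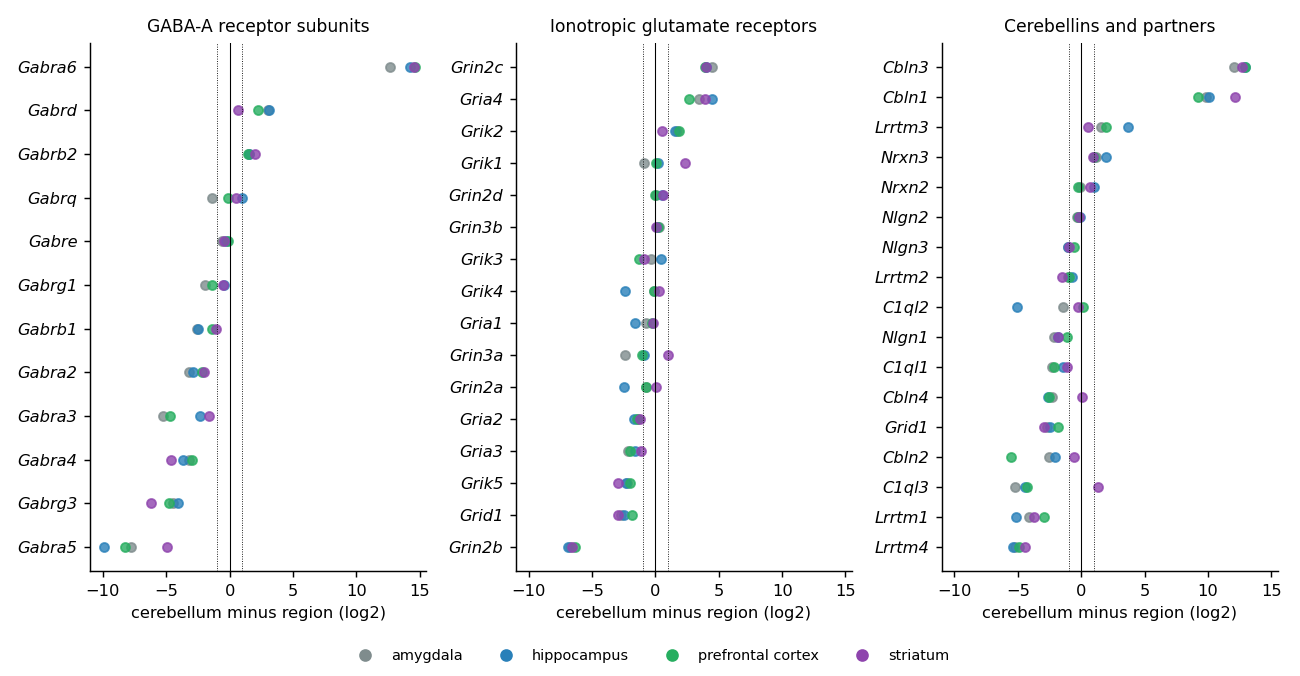
Cerebellum minus each forebrain region, in log2 units, for every tested GABA-A subunit, ionotropic glutamate receptor subunit, and cerebellin, C1q-like protein, neurexin or partner, with colours for regions, each point a difference between means of 8 arrays and dotted lines at 1 and -1. Gabra6, Cbln3 and Cbln1 stand far to the right in all 4 comparisons, Grin2b and Lrrtm4 stand to the left in all 4, and Gabrd and Cbln4 come close to 0 only against striatum (0.66 and 0.09).

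Ionotropic glutamate receptors showed the same kind of split. Of 16 tested subunits 2 were higher (12.5%, beside 5.49% of all tested genes) and 5 lower (31.2%, beside 5.31%). The median was -0.64, and with the floor 4 were lower. The NMDA receptor subunit Grin2c, which mature granule cells use, was at 10.88 to 11.70 in cerebellum and 6.42 to 8.07 in forebrain, a difference of 4.09 ± 0.12. Grin2b, its forebrain counterpart, was at 7.05 to 10.20 and 13.98 to 15.27. Among AMPA receptor subunits Gria4 was higher (3.64 ± 0.15), Gria2 and Gria3 were lower (-1.42 ± 0.08 and -1.71 ± 0.10), and Gria1 differed by -0.70 ± 0.12 without a call. The kainate subunit Grik5 was lower (-2.36 ± 0.12), and Grik2 differed by 1.41 ± 0.08 but by 0.50 from striatum. Grid1, a delta-type glutamate receptor, was lower (-2.49 ± 0.12). A single region could set the forebrain mean. Ppp1r1b, the DARPP-32 gene of medium spiny neurons, had a mean of 9.43 in cerebellum and 16.02 in striatum but 7.38 to 8.72 in the other regions, and its difference from the mean was -0.54 ± 0.28 with striatum and 1.475 without it.

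Among 6 tested metabotropic glutamate receptors Grm4 was higher (16.7%, beside 5.49% of all tested genes). Grm3, Grm5 and Grm7 were lower (50%, beside 5.31%). Grm5, the group I receptor of forebrain neurons, was at 5.97 to 8.00 in cerebellum and 11.82 to 14.56 in forebrain, a difference of -6.23 ± 0.15. Grm2, a Golgi cell receptor that is also present in cortex, was at a mean of 8.94 in cerebellum, 11.52 in hippocampus, 11.58 in prefrontal cortex and 6.2 in striatum, and was not called.

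In the cerebellin family, which organises synapses through neurexins, the direction depended on the member. Of 17 tested cerebellins, C1q-like proteins, neurexins and partners, Cbln1 and Cbln3 were higher (11.8%, beside 5.49% of all tested genes). Lower genes numbered 5 (29.4%, beside 5.31%), and the median was -1.66. Cbln2 had means of 4.85 in cerebellum and 10.37 in prefrontal cortex, but its difference from striatum was -0.60, and it was not called. Cbln4 was close to the cerebellum in striatum as well, at 6.01 against 6.10. The postsynaptic adhesion genes Lrrtm4 and Lrrtm1 were lower, with differences of -4.99 ± 0.13 and -3.99 ± 0.19, and so were Nlgn1 and C1ql1, with -1.73 ± 0.12 and -1.73 ± 0.15. Nrxn3 had a difference of 1.27 ± 0.13 and failed against striatum alone, at 0.93. With the floor, 3 genes of the list were called lower. Without striatum in the comparison, 4 members were higher and 8 lower.

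No tested receptor for monoamines, acetylcholine, opioids or cannabinoids was called higher, and adenosine receptors were not analysed here. Of 27 tested 11 were lower (40.7%, beside 5.31% of all tested genes), with a median of -2.01 and with 25 differences below 0. Chrm1 was followed by Chrm4, another muscarinic receptor (-5.31 ± 0.18), the serotonin receptor Htr2a (-4.65 ± 0.19) and the mu opioid receptor Oprm1 (-3.06 ± 0.20). With the floor, 7 genes of the list were called. Of 18 genes in the list of neuropeptide precursors, which also holds Cbln2 and Cbln4, 5 were lower (27.8%, beside 5.31%) and none higher. The lower ones were Sst, Tac1 (-5.18 ± 0.27), Pdyn (-2.75 ± 0.23), Npy (-2.54 ± 0.19) and Tac2. Tac1, the substance P precursor of striatal neurons, differed by -9.49 from striatum and by -2.11 from hippocampus. With the floor 3 of the genes in the list were lower, and with striatum left out 9 were.

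Genes for synthesis and uptake of amino acid transmitters differed in direction. Of 13 tested genes 4 were higher (30.8%, beside 5.49% of all tested genes). They were the glutamate transporters Slc1a6 of Purkinje cells and Slc1a3 (GLAST) of Bergmann glia and the glycine transporters Slc6a5 and Slc6a9. The transporters Slc1a2 (GLT-1) and Slc1a1 were lower (15.4%, beside 5.31%). Slc1a3 was at 13.63 to 14.72 in cerebellum and 10.72 to 13.49 in forebrain, a difference of 1.76 ± 0.17. Slc1a2 was at 14.38 to 15.69 and 16.38 to 17.98, a difference of -2.20 ± 0.14, so the 2 astrocytic transporters lay on opposite sides with no overlap of their arrays. Slc6a5 was at 6.610 to 7.497 in cerebellum, and its difference was 0.67 with the floor, under which 3 genes of the list were higher.

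Among 33 tested genes of presynaptic release 7 were higher (21.2%, beside 5.49% of all tested genes) and 2 lower (6.06%, beside 5.31%). The median was 0.06, and the lower share was near that of all tested genes. The fast calcium sensor Syt2 was at 11.78 to 13.26 in cerebellum and 4.46 to 8.98 in forebrain, a difference of 6.27 ± 0.24, and Cadps2, Syt9 and Syt12 differed by 4.43 ± 0.22, 3.12 ± 0.26 and 3.08 ± 0.13. The lower genes were the t-SNARE gene Stx1a (-4.54 ± 0.27) and Cplx3 (-1.49 ± 0.32), neither of which was called with the floor. Without amygdala Ala replicate 1 or Thr replicate 5, 1 gene of the list was lower, and with striatum left out 6 genes of the list were lower.

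Of 38 tested postsynaptic genes 13 were lower (34.2%, beside 5.31% of all tested genes) and 5 higher (13.2%, beside 5.49%). Their median was -0.52. Camk2a, the alpha subunit of CaMKII, was at 11.34 to 14.94 in cerebellum and 17.60 to 19.34 in forebrain, a difference of -6.25 ± 0.21. Icam5, a dendritic adhesion protein of the telencephalon, differed by -4.88 ± 0.13 and the scaffold gene Dlg4 by -1.49 ± 0.09. The higher members were Ppp1r17, Homer3, Plcb4, Prkcd and Gng13, of which all but Prkcd are also in the list of Purkinje cell markers. Homer3 had a mean of 8.74 in hippocampus and 6.46 to 6.53 in the other forebrain regions.

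Calcium-binding proteins were divided evenly, 5 of 18 tested higher and 5 lower (27.8% each, beside 5.49% and 5.31% of all tested genes). Pvalb, Calb2, Calb1, Hpcal1 and S100b were higher, and Hpca, Hpcal4, Ncs1, Necab1 and Necab2 lower. Calb2, the calretinin gene of granule and brush cells, was at 15.29 to 15.87 in cerebellum and 5.68 to 14.69 in forebrain, with its nearest region the prefrontal cortex (difference 2.42). Hpca, the hippocalcin gene, was at 12.34 to 13.71 and 15.13 to 19.38, a difference of -4.35 ± 0.20, and Hpcal4 differed by -6.13 ± 0.22.

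Of 46 tested potassium channel genes 8 were higher (17.4%, beside 5.49% of all tested genes) and 15 lower (32.6%, beside 5.31%). The median was -0.00314, and with the floor 7 were higher and 11 lower. The leak channel Kcnk10 differed by 5.27 ± 0.14 and Kcnc1, the fast delayed rectifier Kv3.1, was at 14.68 to 15.15 in cerebellum against 10.30 to 12.11 in forebrain (3.71 ± 0.11). Kcnip2, Kcnv1, Kcnj4 and Kcnq5 were lower, with differences of -7.55 ± 0.16, -7.12 ± 0.20, -5.39 ± 0.17 and -4.88 ± 0.17. Except for Kcnq5 their cerebellum levels were near or below the negative control medians (Kcnj4 at 2.47 to 3.56, Kcnv1 at 4.08 to 6.39), so these sizes do not rank the genes. Of 30 tested sodium and calcium channel genes 6 were higher (20%, beside 5.49%) and 8 lower (26.7%, beside 5.31%). Cacna1a, the P/Q-type calcium channel of Purkinje cells, was at 14.62 to 14.80 and 10.73 to 12.46, a difference of 3.15 ± 0.11, and Cacna1g, the T-type channel, differed by 2.92 ± 0.16. Scn1a and Scn3b, sodium channel subunits, lay on opposite sides at 1.87 ± 0.12 and -6.87 ± 0.21.

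Spinocerebellar ataxias are inherited disorders that damage the cerebellum. Of 17 tested genes of these disorders 3 were higher (17.6%, beside 5.49% of all tested genes), Cacna1a, Cacna1g and Fgf14 (1.97 ± 0.12), and 2 lower (11.8%, beside 5.31%), Ppp2r2b (-2.52 ± 0.10) and Pdyn. With the floor, 1 was lower. The 12 others, which included the ataxin genes tested, lay between -0.80 and 1.02.

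In the Sonic hedgehog pathway, which drives granule cell precursor division during development, 3 of 11 tested genes were higher (27.3%, beside 5.49%) and none lower. They were the coreceptors Boc (4.35 ± 0.15) and Cdon (1.42 ± 0.18) and the receptor Ptch1. Boc was at 10.94 to 12.09 in cerebellum and 5.38 to 8.74 in forebrain. The ligand Shh and the transducer Smo differed by 0.26 ± 0.14 and 0.07 ± 0.10. Among 39 tested axon guidance genes 5 were higher (12.8%, beside 5.49% of all tested genes) and 10 lower (25.6%, beside 5.31%). The median was -1.07, and with the floor 4 were higher and 9 lower. The netrin side itself was divided: the ligands Ntn4 (4.31 ± 0.18) and Ntn1 (1.98 ± 0.14) and the repulsive receptors Unc5b (3.00 ± 0.13) and Unc5c (2.05 ± 0.11) were higher, and the receptors Dcc (-4.03 ± 0.14) and Unc5a were lower. Ntn1 was at 5.29 to 6.54 in cerebellum, near or below the negative control medians, and its difference was 0.02 with the floor, which ended the call. The ephrin receptors Epha4, Epha5, Epha6 and Epha7 were lower, with differences of -5.23 ± 0.16 for Epha6 and -4.36 ± 0.15 for Epha4. With striatum left out, 8 guidance genes were higher.

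Thyroid hormone acts through receptors encoded by Thra and Thrb after entry of hormone by membrane transporters and conversion to T3 by Dio2 in glia. Of 17 tested genes of the pathway 1 was higher (5.88%, beside 5.49% of all tested genes) and 2 lower (11.8%, beside 5.31%). Dio2 lay between 7.95 and 8.49 in cerebellum and between 7.91 and 10.16 in forebrain, with means of 8.17 in cerebellum, 8.56 in amygdala, 9.27 in hippocampus, 9.91 in prefrontal cortex and 9.16 in striatum. The cerebellum had the lowest mean, but amygdala was close to it (cerebellum minus amygdala -0.40), and the gene was not called. The difference from the forebrain mean was -1.06 ± 0.12.

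Thrb was at 6.53 to 8.03 in cerebellum and 9.52 to 11.97 in forebrain, a difference of -3.10 ± 0.19 (limma adjusted p = 7.79e-18), with no overlap. Thra was at 12.91 to 13.82 against 13.77 to 15.80, a difference of -1.30 ± 0.13, and missed the call against striatum at -0.87. Crym, a cytosolic T3-binding protein, was lower (-4.03 ± 0.29). The transporter gene Slc16a10 was the higher one, at 5.78 to 6.23 against 3.07 to 5.17 (1.84 ± 0.15), but every array lay under 6.35 and the call was absent with that floor. The number of higher genes in the pathway was 2 with array normalization by quantiles or medians, and also without cerebellum Ala replicate 12, cerebellum Thr replicate 16, or prefrontal cortex Ala replicate 26 or 27 or Thr replicate 30 or 32. The T3-induced genes Klf9 and Hr had differences of 0.54 ± 0.12 and 1.12 ± 0.10 without being called.

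Glial genes did not move as one group. Of 15 tested microglia genes 11 were lower (73.3%, beside 5.31% of all tested genes) and none was higher. All 15 differences were below 0, with a median of -1.77. Csf1r, the receptor on which microglia depend, was at 6.63 to 7.81 in cerebellum and 9.23 to 11.07 in forebrain, a difference of -2.63 ± 0.12 (limma adjusted p = 4.66e-22). P2ry12, a purinergic receptor of resting microglia, was at 8.44 to 9.39 and 11.07 to 12.72 (-2.88 ± 0.14). Both genes had every cerebellum array below every forebrain array. Fcrls and Cx3cr1 differed by -3.15 ± 0.11 and -2.32 ± 0.16, while Tmem119, Tyrobp, Trem2 and Sall1 were not called, at -0.57 ± 0.13, -1.14 ± 0.16, -1.18 ± 0.13 and -1.19 ± 0.20. The mean of the centred microglia genes ran from -1.60 to -1.26 in cerebellum arrays and from -0.07 to 0.85 in forebrain arrays. With the floor, 6 genes of the list were called.

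Of 16 astrocyte genes 5 were higher (31.2%, beside 5.49% of all tested genes) and 2 lower (12.5%, beside 5.31%). Aqp4, the water channel of astrocyte endfeet, was at 14.81 to 15.07 in cerebellum and 10.89 to 13.07 in forebrain, a difference of 2.69 ± 0.09. Agt and S100b differed by 2.93 ± 0.21 and 2.84 ± 0.13, Slc1a2 and Mfge8 by -2.20 ± 0.14 and -2.84 ± 0.14. Gfap was not called, at 9.77 to 10.84 against 8.02 to 13.04, with its highest regional mean in hippocampus (12.13). None of 14 oligodendrocyte and myelin genes was called. Mbp, for the myelin basic protein, had a mean of 17.30 in cerebellum, between 14.98 in amygdala and 18.15 in striatum. None of the 13 endothelial and mural genes was called, and their differences ran from -0.32 to 0.54.

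**Figure D4:**
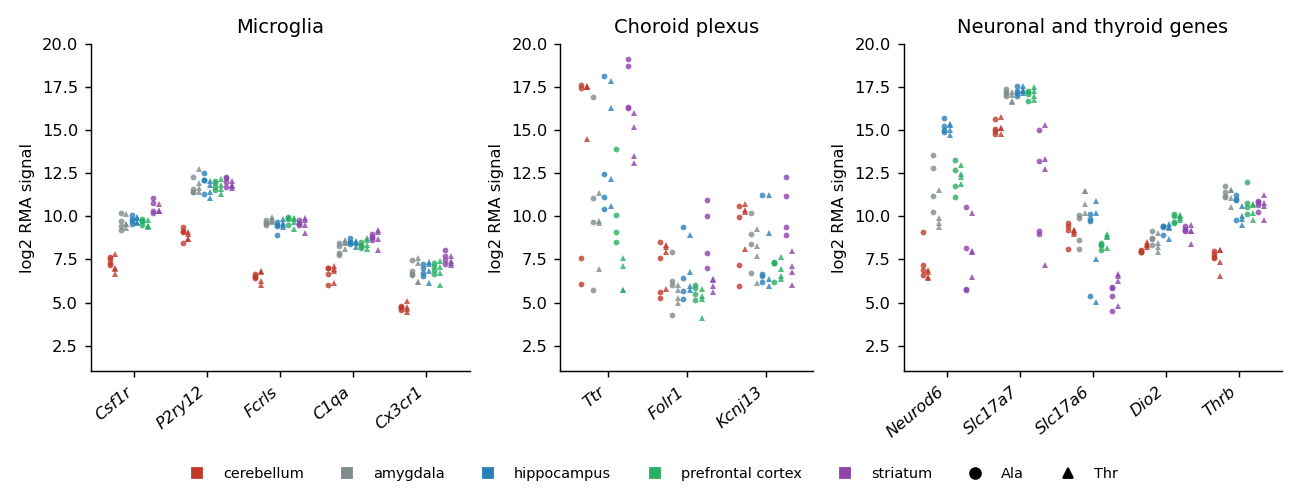
Log2 RMA signal by array (8 per region, circles Ala, triangles Thr, colours regions) of 5 microglia genes, 3 choroid plexus genes and 5 neuronal or thyroid hormone genes. The cerebellum arrays lie below the forebrain arrays for Csf1r (6.63 to 7.81 against 9.23 to 11.07) and P2ry12, Ttr spreads the cerebellum arrays from 6.07 to 17.60, and Dio2 in cerebellum overlaps amygdala.

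Among 15 immediate early genes, which neuronal activity induces, 5 were lower (33.3%, beside 5.31% of all tested genes) and none higher. Egr3 (-3.81 ± 0.16) and Egr1 (-3.26 ± 0.33) led, followed by Npas4, Nr4a1 and Junb. Without cerebellum Ala replicate 10, or with a robust variance prior, 3 genes were called lower, and with the floor 4 were. The Egr1 ranges overlapped, at 9.21 to 11.10 in cerebellum and 10.48 to 15.37 in forebrain, and Fos differed by 0.24 ± 0.27. Of 11 housekeeping genes none was called. Gapdh differed by -0.00685 and Actb by -0.38 ± 0.08, the first of which took either sign under other scalings.

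The comparison was repeated within each genotype. The group means came from separate arrays, but the fit, its estimate of the spread and the gene filter were shared. The Ala arrays gave 1593 cerebellar genes (10.6%), 816 higher and 777 lower, and the Thr arrays 1624 (10.8%), 815 higher and 809 lower. They shared 694 of the higher genes, 85% of the Ala set and 85.2% of the Thr set. They shared 686 of the lower genes, 88.3% and 84.8%, and 0 genes were called in opposite directions. Across the tested genes, which are not independent replicates, the differences from the forebrain mean in the 2 genotypes had a Pearson r of 0.9765.

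No gene passed the test of whether the difference between cerebellum and forebrain itself differed between genotypes (0 of 14978, limma), and 353 (2.36%) had an unadjusted p under 0.05. Layn, a hyaluronan receptor gene, had the smallest p. It was at 5.35 to 5.50 in the 4 Ala cerebellum arrays and at 6.00 to 6.55 in the 4 Thr arrays, and the difference from the forebrain mean was 0.31 ± 0.14 in Ala and 1.22 ± 0.14 in Thr. The interaction was -0.91 ± 0.20 (limma adjusted p = 0.554). The cerebellum levels of Layn and of the other genes with the smallest p-values, named next, were near or below the negative control medians. Among the latter, Ccdc192 was at 3.67 to 5.01 and Nudt17 at 5.41 to 6.56. Qpct, Nudt17, Vmn1r10, Ccdc192 and Tuft1, the others among the 6 smallest p-values, had interactions of 1.14 ± 0.35, 0.86 ± 0.25, -1.03 ± 0.31, 0.98 ± 0.30 and -0.75 ± 0.23, each with an adjusted p of 1.00 by limma. Dio2 was at 7.95 to 8.04 in the Ala and 8.19 to 8.49 in the Thr cerebellum arrays, and its interaction of -0.51 ± 0.24 had an adjusted p of 1.00 by limma. Ttr had differences of -0.80 ± 1.55 in Ala and 5.60 ± 1.55 in Thr, and the 2 lowest cerebellum arrays for this gene were both Ala (adjusted p = 1.00 by limma).

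**Figure D5:**
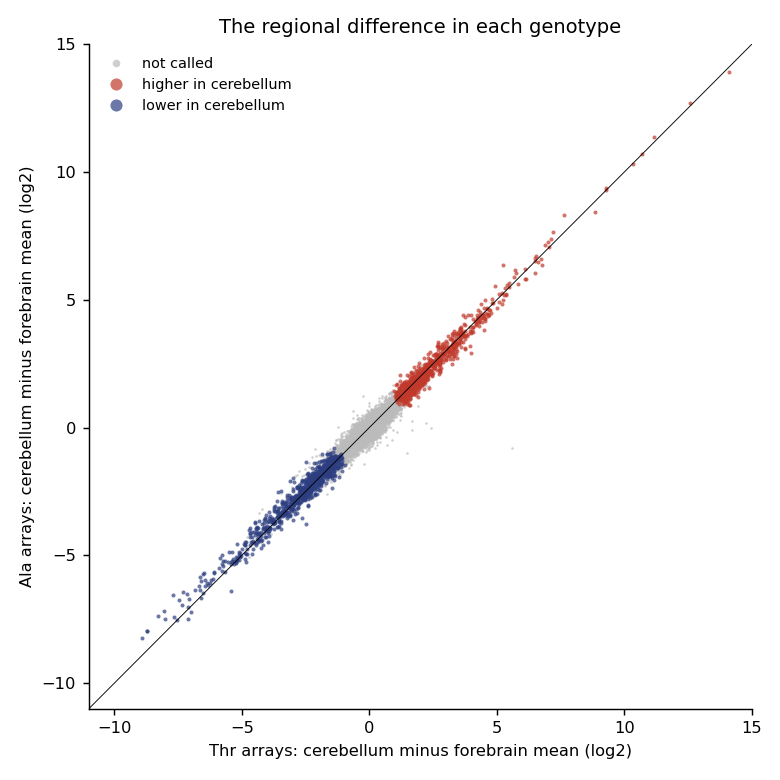
Difference of cerebellum from the forebrain mean in log2 units for each of 14978 tested genes, from the Thr arrays (x axis) and the Ala arrays (y axis), with genes called higher in red, lower in blue, the others in grey and the line of equality. The points follow the line (Pearson r 0.9765 across genes), and Ttr is the grey point far to the right below the line, at 5.60 in Thr and -0.80 in Ala.

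The calls ended at an arbitrary threshold of size. The smallest of the 4 differences was between 1.0 and 1.1 for 101 higher and 63 lower genes. Rfc4, St3gal6 and Zfp248 were the nearest higher genes inside it, each with a smallest difference of 1.00, and Etl4, Oaf and Ap2a1 the nearest lower genes, at -1.002, -1.006 and -1.004. Of the genes described above, Nrxn3 and Thra lay just outside through striatum alone, at 0.93 and -0.87. The median smallest difference was 1.58 for the higher and -1.73 for the lower genes.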

How the data were processed

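Total RNA, extracted with Trizol, was measured on Affymetrix arrays, per the labels' protocols. The deposited values are log2 signals that the authors made by RMA, which corrects background, normalizes arrays to each other and summarizes probes per transcript, per the submitters' processing notes. The RMA version, the annotation used and the genome build are not given in the sources used here. All 28846 rows of the 40 arrays were read, and 19572 rows with 1 gene symbol in GEO's platform annotation gave 19505 genes. Tested genes exceeded log2 4.6, the 30th percentile, on at least 4 arrays.

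A linear model with 10 group means (30 residual degrees of freedom, empirical Bayes with a trend) was computed in limma 3.58.1 under R 4.3.3, and p-values were adjusted over all 14978 tested genes by the Benjamini-Hochberg method. SE is that of the fit, and the number of arrays limits precision. The steps were tested on simulated data.

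The members, the 33 gene lists (634 distinct genes, 571 on the array, 545 tested) and the tests were chosen with earlier results of these data known. Described genes are the 12 furthest from every region per direction, up to 4 called members per list and direction, all receptor and cerebellin members, fixed cell type and thyroid genes, the 6 smallest interaction p-values, the 3 nearest the threshold, and 6 unlisted genes per direction. Other list members named were chosen after their values were seen. A member that passed the filter only through the tissue where it is high had to differ, so list counts are descriptions. Alternatives concerned scaling, filter, variance prior, thresholds, weighting of regions and arrays left out.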

Additional observations from a re-analysis of the deposited data

Results flagged for a closer look

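For the 12 genes furthest in each direction, 11 marker genes and 3 array summaries, the highest or lowest of the 4 arrays of each of the 2 cerebellum groups was marked when its gap to the nearest other relative to the group's range exceeded Dixon's critical value, which chance passes in about 1 in 20 groups. Of 76 such sets of 4 values 6 were marked. The forebrain groups were not examined this way. Cerebellum Ala replicate 12 was the high one for Camkv (8.093, nearest other 5.677), Lmo7 (9.734, nearest 7.731) and the median deviation of the genes lower in cerebellum (0.411, nearest -0.035). For Dio2 the same array was marked at 8.043, although the nearest other was at 7.963. Cerebellum Thr replicate 14 was the low one for the choroid plexus genes Ttr (14.47, nearest 17.48) and Folr1 (5.77, nearest 7.911).

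Vmn1r10, a vomeronasal receptor gene, differed from the forebrain mean by -0.366 in Ala and by 0.666 in Thr arrays, and the interaction did not pass (limma adjusted p = 1.00). Its cerebellum values, 3.92 to 5.35, lay below the negative control medians. Among 1865 tested transcript rows without a gene symbol, 68 were higher in cerebellum than in every forebrain region (3.65%, beside 5.49% of named genes) and 64 lower (3.43%, beside 5.31%). The 5222 rows named as negative controls were higher in cerebellum by a median of 0.311, with 79.1% of them above 0. The same median was -0.00522 for 1324 positive control rows and -0.116 for 63 ERCC spike-in rows. For 23 rows named as background probes by GC content it was -0.0555, with 17.4% of them above 0.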

How the results depend on the processing

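The 1618 cerebellar genes became 1592 to 1670 when 1 array was left out. The same ranges were 2773 to 2847 against the forebrain mean, 3150 to 3228 against amygdala, 2876 to 2950 against hippocampus, 2843 to 2938 against prefrontal cortex, 3163 to 3251 against striatum, 1542 to 1702 in Ala and 1593 to 1666 in Thr. Quantile normalization and median centring kept 97.9% and 98.5% of the calls. The floor at 6.35, chosen after seeing the data, kept 80.3% of the calls and gave 1299. Only the size threshold moved these counts by over 1.5 times. Without it, in the order cerebellar, forebrain mean, amygdala, hippocampus, prefrontal cortex, striatum, Ala and Thr, they were 4469, 8610, 7966, 7496, 7504, 8095, 3120 and 3290, and at a difference of at least 2 they were 570, 1039, 1167, 1067, 1085, 1244, 562 and 585. Genes near 0 changed sign. Gapdh was at 0.12 with quantile normalization, 0.0253 with centring, 0.000194 with array weights, 0.00155 without amygdala, 0.00275 without hippocampus, 0.0349 without the arrays that stood apart and 0.0111 without the 3 cerebellum arrays lowest in choroid plexus genes. Gabrq was at -0.32 without hippocampus, -0.16 without striatum, -0.11 with the floor and -0.049 without those 3 arrays. Without hippocampus Gfap was at 0.54 and Grik4 at 0.00843, and without striatum Grik1 was at -0.24 and Ppp1r1b at 1.475. Ttr, which was not near 0, went from 2.40 ± 1.09 to -0.43 with the choroid plexus covariate, a score that Ttr is part of. With 1 array left out Gabrq ranged from -0.2096 to 0.2113, Gapdh from -0.03355 to 0.02567 and Gfap from -0.1736 to 0.004286. The cause of these changes was not tested. No paired analysis was possible because the array numbers in the labels run through the series and no groups share one.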

Other observations

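Genes outside every list also separated the tissues. Chd7, a chromatin remodeller, was at 15.80 to 16.71 in cerebellum and 8.95 to 10.66 in forebrain, a difference of 6.55 ± 0.14 (SE, limma). The cytokine receptor gene Il20rb differed by 6.61 ± 0.17, Mab21l1 by 6.49 ± 0.12, the aquaporin gene Aqp6 by 5.95 ± 0.13, Nrep by 5.71 ± 0.19 and Crtam by 5.28 ± 0.13. For each of these 6 genes no cerebellum array overlapped a forebrain array, beside 6.96% of all tested genes with every cerebellum array above. The 6 were the next genes by smallest difference outside the lists, a choice that favours separation.

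On the lower side Mal2, a membrane trafficking gene, was at 6.81 to 10.62 in cerebellum and 11.31 to 16.08 in forebrain, a difference of -6.88 ± 0.29. Gda, the guanine deaminase gene, differed by -6.60 ± 0.21, the postsynaptic density gene Lrrc7 by -6.09 ± 0.15, Dbpht2 by -6.21 ± 0.22, 1700086L19Rik by -6.16 ± 0.25 and Grasp, a scaffold of metabotropic glutamate receptors, by -5.36 ± 0.22. The cerebellum arrays lay below all forebrain arrays for these 6 genes, which were chosen in the same way, beside 5.67% of all tested genes.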
